A study of Homo sapiens with 19 samples.

Results

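KNGAE elements are a class of reporter inserts tested by QUASARR-seq, and they were taken here as every element whose name is KNGAE, a number of 4 digits and the orientation fwd or rev. There were 166 such elements among the 3422 element names of the study, 84 in the fwd and 82 in the rev orientation. They stand for 84 loci, of which 82 had both orientations. The deposited tables tested 134 of the 166 elements in all 8 combinations of plasmid set, minimal promoter and read-out. The labels do not spell out the letters of the class name, and base sequences and genome positions of the elements were not analysed here.

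A promoter is DNA at which transcription starts, and an enhancer is DNA that raises transcription from a promoter placed elsewhere. A massively parallel reporter assay places many DNA fragments in plasmids, marks each with barcodes and reads the activity of a fragment as the RNA made from its barcode over the DNA of the same barcode. A minimal promoter supplies a basal start site on which an enhancer can act. Activity of a fragment in one orientation and not in the other is a property usually associated with promoters, whereas enhancers are classically described as acting in both orientations.

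The plasmid libraries had been electroporated into K-562 cells, a human myeloid leukaemia line, with 20 µg of plasmid in each electroporation. Each technical replicate pooled 5 electroporations, each biological replicate had 2 technical replicates, and cells were collected after 6 h. Every element had a paBC, read here as the promoter read-out, and an eaBC, read here as the enhancer read-out. Set 1 was built with the minimal promoter pMYC and set 2 with pMYC, pGAPDH and pAPOBEC3F in 1 pool, so the tables of set 2 share their libraries. For each set and read-out there were 2 RNA and 2 DNA libraries, made from the electroporated cells, and the RNA is set against the DNA of the same read-out. Whether the 2 replicates are biological or technical is not given in the labels, and the p-values therefore measure the spread between these libraries only.

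KNGAE elements were read more deeply in the promoter read-outs than in the enhancer read-outs. The median KNGAE element had 741 and 818 RNA reads, against 4822 and 4754 DNA reads, in the 2 replicates of the set 1 promoter read-out. In the pAPOBEC3F enhancer read-out, the shallowest, it had 36 and 36 RNA reads, against 200 and 191 DNA reads. Across KNGAE elements, replicate 1 and replicate 2 log2 RNA/DNA ratios had a Pearson's r of 0.84, 0.78, 0.95 and 0.75 in the promoter read-outs of set 1 pMYC, set 2 pMYC, pGAPDH and pAPOBEC3F, over 163, 148, 163 and 147 elements. In the enhancer read-outs it was 0.51, 0.26, 0.58 and 0.36, over 162, 150, 163 and 146 elements. These are descriptions across elements that share their libraries, and single elements in the enhancer read-outs of set 2 pMYC and pAPOBEC3F are therefore poorly resolved. Between 0 and 2 KNGAE elements per table were listed without a test, 8 entries in all, each with signal values below 10.

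In the promoter read-outs, which ask whether an element itself starts transcription, KNGAE elements mostly gave less RNA than DNA. Their median log2 RNA/DNA was -0.39 in set 1 pMYC, -0.40 in set 2 pMYC, -0.33 with pGAPDH and -0.56 with pAPOBEC3F, in the authors' deposited tables. The same medians over all elements tested were 0.39, 0.24, -0.07 and 0.23 in the authors' deposited tables. On a linear scale the KNGAE median was 0.585 of the median of all elements in set 1 pMYC, 0.640 in set 2 pMYC, 0.835 with pGAPDH and 0.577 with pAPOBEC3F. All elements of set 1 include 209 substituted elements, whose names carry a base change and which set 2 lacks. Without them the gap in set 1 was smaller, as given in the last section. The zero of each log2 scale comes from the authors' normalization, which was done separately for each table, so a negative value means less RNA per DNA than that zero, and levels are not compared between tables by a test.

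At an adjusted limma p under 0.05 in the authors' deposited table for set 1 pMYC, 110 of 163 KNGAE elements were lower in the promoter read-out, against 26% of all elements, and 14 were higher, against 56.1%. The authors' deposited table for set 2 pMYC called 101 of 148 KNGAE elements lower, against 27.8% of all elements, and 9 higher, against 52.3%. With pGAPDH, the authors' deposited table had 116 of 163 KNGAE elements lower, against 46.6% of all elements, and 21 higher, against 36.3%. With pAPOBEC3F, the authors' deposited table had 114 of 147 KNGAE elements lower, against 30.6% of all elements, and only 2 higher, against 50.7%. The class as a whole thus lay low, and its members covered a range of more than 1 log2 unit: from -1.48 to 0.47 in set 1 pMYC, from -1.79 to 0.41 in set 2 pMYC, from -1.79 to 0.50 with pGAPDH and from -1.93 to 0.43 with pAPOBEC3F, in the authors' deposited tables. The SD across KNGAE elements was 0.37, 0.42, 0.41 and 0.42, and the median SD between the 2 replicates of an element was 0.07, 0.10, 0.05 and 0.12 log2 units.

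The split between higher and lower calls depended on the zero point. In an own limma fit centred on the median of all elements, 0 KNGAE elements were higher and 151 lower in the promoter read-out of set 1 pMYC, and 1 was higher and 125 lower in its enhancer read-out. Centred on the elements named by a number alone, an alternative chosen after seeing the data, 39 were higher and 67 lower in the promoter read-out of set 1 pMYC, and 21 higher and 62 lower in the promoter read-out of set 2 pMYC. More KNGAE elements were lower than higher in each of these fits. In the authors' deposited table, 161 of 163 KNGAE elements lay below the set 1 pMYC promoter median of all elements. The split after centring on that median follows from this and is no added support. Counts over all elements in the centred fits, and in those without 1 library, are not given here. The higher counts moved when 1 library was left out of an own limma fit, in which the lone sample of a group is assumed to vary like the other group and fewer degrees of freedom remain. Without DNA replicate 1 and without DNA replicate 2 they were 4 and 3 in set 1 pMYC, 1 and 3 in set 2 pMYC, 13 and 12 with pGAPDH and 0 and 0 with pAPOBEC3F, all promoter read-outs. Without RNA replicate 1 they were 24 in set 1 pMYC and 17 in set 2 pMYC, and without RNA replicate 2 22 in set 1 pMYC.

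The KNGAE range ended where many other elements began. In the authors' deposited tables, 48.2% of all elements of the promoter read-out of set 1 pMYC lay above the highest KNGAE element, 43.3% in set 2 pMYC, 15.2% with pGAPDH and 45.1% with pAPOBEC3F. No KNGAE element was called higher by 1 log2 unit or more in any of the 8 authors' deposited tables. Over all elements the promoter counts were 571 of 1528, 721 of 2561, 197 of 3044 and 920 of 2699, in the same order. The enhancer counts were 392 of 1528, 404 of 2561, 52 of 3043 and 360 of 2695. Such calls were thus rare over all elements too in the pGAPDH enhancer read-out. KNGAT and KNGUT, classes with related names, had 0 or 1 in each table. With the lower calls of the authors' deposited tables held to the same size, 9, 12, 11 and 24 KNGAE elements were left in the promoter read-outs of set 1 pMYC, set 2 pMYC, pGAPDH and pAPOBEC3F. These are 5.52%, 8.11%, 6.75% and 16.3% of the KNGAE elements tested, against 2.03%, 3.71%, 5.88% and 5.15% of all elements, so that the pGAPDH share is near the background.

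The enhancer read-outs, which ask whether an element raises RNA from the minimal promoter, put the same class closer to zero. The KNGAE median log2 RNA/DNA was -0.09 in set 1 pMYC, -0.14 in set 2 pMYC, -0.15 with pGAPDH and -0.24 with pAPOBEC3F, in the authors' deposited tables. Over all elements the medians were 0.23, 0.19, -0.01 and 0.09 in the authors' deposited tables. The linear ratio of the KNGAE median to that of all elements was 0.806, 0.792, 0.908 and 0.793. The substituted elements of set 1 are among all elements here too. All elements also spread less here, with an SD of 0.97, 0.72, 0.33 and 0.75 across elements. In the promoter read-outs it was 1.49, 1.25, 0.67 and 1.54. The median KNGAE percentile rank was 21.6, 21.1, 26.9 and 21.4 as enhancers, against 17.5, 19.8, 32.4 and 16.9 as promoters. By rank the class thus lay lower as enhancers than as promoters with pGAPDH, and somewhat higher in the others. KNGAE values ran from -0.87 to 0.49, from -1.30 to 0.53, from -0.79 to 0.47 and from -1.27 to 0.60 in the authors' deposited tables.

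Fewer KNGAE elements were called in the enhancer read-outs. In set 1 pMYC, 52 of 162 were lower, against 11.8% of all elements, and 11 were higher, against 54.6%, by limma in the authors' deposited table. In set 2 pMYC, 28 of 150 were lower, against 7.38%, and 6 higher, against 40.4%, in the authors' deposited table. With pGAPDH, 61 of 163 were lower, against 18.5%, and 5 higher, against 22.2%, in the authors' deposited table. With pAPOBEC3F, 32 of 146 were lower, against 7.38%, and 5 higher, against 30.1%, in the authors' deposited table. The lower counts moved by more than 1.5 times when 1 library was left out of an own limma fit: to 12 and 9 without DNA replicate 1 and 2 in set 1 pMYC, to 3 and 3 in set 2 pMYC, to 33 and 32 with pGAPDH and to 0 and 0 with pAPOBEC3F. For pGAPDH they also came to 14 without RNA replicate 1 and 7 without RNA replicate 2. The higher counts without DNA replicate 1 and 2 were 2 and 4 in set 1 pMYC, 0 and 0 in set 2 pMYC, 2 and 1 with pGAPDH and 0 and 0 with pAPOBEC3F. Without RNA replicate 1 the higher count was 17 in set 1 pMYC and 0 with pGAPDH, and without RNA replicate 2 it was 3 in set 2 pMYC and 0 with pGAPDH. Centred on all elements, the split in an own limma fit was 0 higher and 41 lower in set 2 pMYC and 1 higher and 26 lower with pAPOBEC3F.

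Depth moved with the share of KNGAE elements called in the shallow enhancer read-outs, and its part in the difference between read-outs was not tested. The same split over all elements is not given here, so it is not shown to be particular to KNGAE. In the pAPOBEC3F enhancer read-out, 27 of 72 KNGAE elements with over 383 DNA reads in both libraries together were called, against 10 of 74 with fewer or as many, and the median log2 values were -0.25 and -0.18 in the authors' deposited table. In the set 2 pMYC enhancer read-out it was 27 of 75 above 467.5 DNA reads, against 7 of 75 at or below it, with medians of -0.10 and -0.18 in the authors' deposited table. In set 1, the deepest in DNA reads, 32 of 81 elements above 2708.5 DNA reads and 31 of 81 at or below it were called in the enhancer read-out, with medians of -0.07 and -0.13 in the authors' deposited table.

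The shares of reads, which take the library total in place of the authors' zero point, were also lower in RNA than in DNA. They come from the same reads and are no independent check. In the set 1 promoter read-out, KNGAE elements made up 10.6% of the elements. They took 2.22% and 2.41% of the RNA reads of the 2 replicates, against 9.10% and 9.10% of the DNA reads. The 95% Wilson intervals of the RNA shares were 2.21% to 2.23% and 2.40% to 2.42%, which cover counting error only, since PCR reads are not independent molecules. In the pAPOBEC3F promoter read-out, KNGAE elements took 1.29% and 1.38% of RNA reads, against 5.43% and 5.44% of DNA reads. In the pGAPDH promoter read-out, the gap was smaller, with 4.08% and 4.12% of RNA reads, against 5.19% and 5.18% of DNA reads. In the promoter read-out of set 2 pMYC the shares were 1.93% and 2.01% of RNA reads, against 5.25% and 5.25% of DNA reads. A share of reads is also lowered by strong elements of other classes in the same library. The upper quartile of all elements was 1.70 with pAPOBEC3F and 0.27 with pGAPDH on the log2 scale of the authors' deposited tables.

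As enhancers, KNGAE elements took 4.65% and 4.68% of RNA reads, against 8.86% and 8.88% of DNA reads, in set 1 pMYC, and 3.31% and 3.43% of RNA reads, against 5.17% and 5.13% of DNA reads, in set 2 pMYC. With pGAPDH they took 4.49% and 4.50% of RNA reads, against 5.12% and 5.11% of DNA reads, and with pAPOBEC3F 3.50% and 3.55% of RNA reads, against 5.29% and 5.30% of DNA reads. In all 8 tables both RNA shares lay below both DNA shares.

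Low calls recurred across minimal promoters in the promoter read-out. Of 136 KNGAE elements tested in all 4 promoter tables, 68 were called lower in all 4 of the authors' deposited tables and 19 in none. Over all elements tested in all 4, 19.6% were called lower in every one of the authors' deposited tables. The share of all elements called lower in none is not given here, for either read-out. For higher calls, 112 of the 136 elements, or 82.4%, were higher in none of the 4 authors' deposited tables, against 39.7% of all elements, and 1, or 0.735%, was higher in all 4, against 29.3%. In the enhancer read-out, 3 of 136 KNGAE elements were lower in all 4 of the authors' deposited tables, against 1.78% of all elements, and 52 were lower in none. The 3 tables of set 2 come from the same libraries, so a call repeated among them is not an independent repeat.

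KNGAE0028.fwd was 1 of 3 KNGAE elements called lower in all 8 of the authors' deposited tables. These are 2.24% of the 134 tested in all 8, against 1.7% of all elements, a share near the background, and the 3 are described as examples only. Its log2 RNA/DNA in replicates 1 and 2 was -0.96 and -0.48 in the promoter read-out of set 1 pMYC, -1.38 and -1.74 in set 2 pMYC, -1.15 and -1.18 with pGAPDH and -1.50 and -1.63 with pAPOBEC3F. All 8 promoter values were thus negative, and set 1 lay above set 2. In the enhancer read-outs the replicate values were -0.54 and -0.55 in set 1 pMYC, -0.98 and -1.14 in set 2 pMYC, -0.49 and -0.56 with pGAPDH and -1.12 and -1.26 with pAPOBEC3F. The reads behind the pAPOBEC3F enhancer value were 15 and 15 RNA reads, against 171 and 165 DNA reads. The adjusted limma p of KNGAE0028.fwd in the authors' deposited tables ran from 0.000404 in the set 1 promoter read-out to 9.34e-46 in the promoter read-out of set 2 pMYC.

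KNGAE0016.fwd and KNGAE0143.rev were the other members called lower everywhere. KNGAE0016.fwd averaged -0.40 ± 0.15 in the promoter read-out of set 1 pMYC and -1.13 ± 0.03 with pGAPDH (log2, SD, n = 2 each). Its enhancer values were milder, at -0.22 ± 0.06 in set 1 pMYC and -0.28 ± 0.23 with pGAPDH (SD, n = 2 each). KNGAE0143.rev averaged -0.80 ± 0.06, -0.81 ± 0.04, -0.79 ± 0.00 and -0.90 ± 0.28 in the promoter read-outs of set 1 pMYC, set 2 pMYC, pGAPDH and pAPOBEC3F (SD, n = 2 each), a level that hardly varied. Its enhancer values were -0.18 ± 0.01, -0.24 ± 0.13, -0.28 ± 0.00 and -0.58 ± 0.52 (SD, n = 2 each), and the last pair of replicates, -0.95 and -0.21, stood far apart.

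Other members were lowest in single promoter tables. KNGAE0155.rev was the lowest of set 1 pMYC, with -1.58 and -1.39, and stayed low in set 2 pMYC, with -1.39 and -1.31. KNGAE0043.rev was the lowest in set 2 pMYC, with -1.95 and -1.63 on 11 and 15 RNA reads, and with pAPOBEC3F, with -2.08 and -1.80 on 49 and 69 RNA reads. In the pAPOBEC3F enhancer read-out the same element gave -0.81 and -0.36. KNGAE0055.rev gave -1.14 and -1.58 in the promoter read-out of set 1 pMYC and -1.58 and -1.97 with pAPOBEC3F, and its pGAPDH enhancer values were -0.81 and -0.70. KNGAE0024.fwd was the lowest with pGAPDH, at -2.04 and -1.56, whereas its set 1 pMYC values were -0.54 and -0.09. The adjusted limma p of KNGAE0024.fwd was 4.85e-09 with pGAPDH and 0.0662 in set 1 pMYC in the authors' deposited tables. KNGAE0091.fwd and KNGAE0075.fwd followed with pGAPDH, at -1.47 ± 0.06 and -1.45 ± 0.01 (SD, n = 2 each).

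The lowest enhancer values rested on fewer reads. In the set 1 pMYC enhancer read-out KNGAE0155.fwd gave -0.81 and -0.90 on 26 and 26 RNA reads, KNGAE0011.fwd averaged -0.77 ± 0.32 (SD, n = 2) and KNGAE0072.rev gave -0.90 and -0.41. In set 2 pMYC the lowest called member, KNGAE0100.fwd, gave -2.32 and -0.31 on 2 and 8 RNA reads, so its replicates disagree by about 2 log2 units. With pAPOBEC3F, KNGAE0046.rev gave -1.14 and -1.40 on 8 and 8 RNA reads, and KNGAE0142.rev gave -1.28 and -0.92 on 8 and 13 RNA reads. With pGAPDH, KNGAE0128.fwd gave -0.49 and -1.06, and KNGAE0055.fwd gave -0.54 and -0.90.

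A small number of KNGAE elements lay above zero in several tables, all by modest amounts. Of the 134 elements tested everywhere, 28 were called higher in at least 1 table and 3 in at least 5 of the authors' deposited tables. These are 20.9% and 2.24%, against 65.3% and 38.2% of all elements tested everywhere. KNGAE0048.rev was higher in 7 of the 8 authors' deposited tables. Its promoter values were 0.36 and 0.18 in set 1 pMYC, 0.14 and 0.15 in set 2 pMYC, 0.25 and 0.28 with pGAPDH and -0.13 and -0.10 with pAPOBEC3F. Its enhancer values were 0.27 and 0.14, -0.01 and 0.49, 0.19 and 0.14, and 0.40 and 0.23 in the same order of minimal promoters. Only the pAPOBEC3F promoter value was negative in both replicates, with an adjusted limma p of 0.0631 in the authors' deposited table. The percentile rank of KNGAE0048.rev was 46.9, 45.8, 75.1 and 36.7 in the promoter read-outs. In the enhancer read-outs it was 48.9, 54.4, 74.5 and 65.3. Some of its higher calls thus lay below the median of all elements.

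KNGAE0025.fwd was the 1 member called higher in all 4 promoter read-outs. It gave 0.28 and 0.45 in set 1 pMYC, 0.34 and 0.48 in set 2 pMYC, 0.31 and 0.44 with pGAPDH and 0.31 and 0.19 with pAPOBEC3F. Its enhancer values were 0.21 and 0.25 in set 1 pMYC and 0.30 and 0.33 in set 2 pMYC, but -0.00 and 0.07 with pGAPDH and -0.02 and 0.01 with pAPOBEC3F. Within its own tables KNGAE0025.fwd stood at the 49.5th percentile of the set 1 pMYC promoter values and the 80.0th with pGAPDH. When, in an own limma fit, the set 1 pMYC promoter table was centred on the median of all elements, its log2 value became -0.02, a turn of sign.

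KNGAE0071.rev was higher in all 4 enhancer read-outs and in 1 promoter read-out of the authors' deposited tables. Its enhancer values were 0.31 and 0.20 in set 1 pMYC, 0.35 and 0.40 in set 2 pMYC, 0.30 and 0.19 with pGAPDH and 0.18 and 0.44 with pAPOBEC3F. Its promoter values were 0.16 and -0.04, 0.07 and 0.06, 0.37 and 0.37, and 0.00 and -0.02 in the same order. The pGAPDH promoter value stood out from the others, with an adjusted limma p of 5.62e-08 in the authors' deposited table. KNGAE0051.rev had a like enhancer pattern, with 0.35 ± 0.06, 0.33 ± 0.07, 0.29 ± 0.03 and 0.23 ± 0.12 (log2, SD, n = 2 each), of which the last missed the threshold at an adjusted limma p of 0.126 in the authors' deposited table.

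The highest member of a promoter table differed between minimal promoters. KNGAE0047.fwd led in set 1 pMYC with 0.46 and 0.48, followed by KNGAE0122.fwd with 0.33 and 0.47. KNGAE0001.fwd led with pGAPDH, with 0.49 and 0.50, and gave 0.26 and 0.08 in set 1 pMYC and 0.10 and -0.02 with pAPOBEC3F. The 2 members called higher with pAPOBEC3F were KNGAE0061.fwd, with 0.29 and 0.57, and KNGAE0025.fwd. In the enhancer read-outs KNGAE0142.fwd led in set 1 pMYC with 0.47 and 0.51 on 39 and 44 RNA reads, KNGAE0115.rev led with pGAPDH with 0.78 and 0.16, and KNGAE0013.rev led among the called members with pAPOBEC3F with 0.67 and 0.53 on 28 and 27 RNA reads. KNGAE0031.fwd gave 0.29 and 0.38 in the set 2 pMYC enhancer read-out and 0.32 and 0.41 in the promoter read-out of the same set.

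KNGAE0069.fwd was close to the class median in the set 1 pMYC promoter table, by which it was named, and lower in its class in some enhancer tables. As promoter in set 1 pMYC it gave -0.45 and -0.33, on 770 and 936 RNA reads, against 5909 and 5646 DNA reads. Its other promoter values were -0.54 and -0.32, -0.42 and -0.40, and -0.70 and -0.64 in set 2 pMYC, with pGAPDH and with pAPOBEC3F. Its enhancer values were -0.26 and -0.26 in set 1 pMYC, -0.21 and 0.00 in set 2 pMYC, -0.16 and -0.19 with pGAPDH and -0.83 and -0.63 with pAPOBEC3F, where the class median was -0.24. It was called lower in all 4 promoter read-outs and, among the enhancer read-outs, in set 1 pMYC and with pAPOBEC3F, in the authors' deposited tables.

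The promoter and enhancer read-outs of the same element and minimal promoter were moderately correlated within the class. Across KNGAE elements, Pearson's r between the authors' deposited log2 fold changes of the promoter and enhancer tables was 0.40, 0.48, 0.54 and 0.57 for set 1 pMYC, set 2 pMYC, pGAPDH and pAPOBEC3F, and Spearman's rho was 0.38, 0.49, 0.57 and 0.59. Over all elements r was 0.85, 0.84, 0.62 and 0.76. The KNGAE points cover a narrower range than all elements, both read-outs come from the same cells, and no test was made. The enhancer replicates themselves had an r of 0.51, 0.26, 0.58 and 0.36 across KNGAE elements. Over all elements it was 0.98, 0.86, 0.80 and 0.80. How much of the lower r between read-outs comes from that was not tested. Of the KNGAE elements called lower in the enhancer read-out, 86.5% in set 1 pMYC and 88.5% with pGAPDH had a lower promoter call too in the authors' deposited tables, and in set 2 pMYC and with pAPOBEC3F every one of them had. Of those called lower as promoters, 40.9%, 27.7%, 46.6% and 28.1% had a lower enhancer call too. Over all elements the shares were 75.1%, 90.5%, 84.4% and 81.4% of the enhancer-lower elements and 34.3%, 24.1%, 33.6% and 19.6% of the promoter-lower elements, in the same order of tables. Low in both read-outs were 45, 28, 54 and 32 KNGAE elements, or 27.8%, 18.9%, 33.1% and 21.9% of those tested in both, against 8.92%, 6.7%, 15.7% and 6.02% of all elements. Low as promoter with no enhancer call were 62, 73, 62 and 81, or 38.3%, 49.3%, 38.0% and 55.5%, against 15.9%, 20.5%, 29.0% and 24.3%. Lower promoter calls are themselves more frequent among KNGAE elements, and no test of the overlap was made.

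In the authors' deposited tables, 4 KNGAE elements were called in opposite directions by the read-outs of 1 table pair, each lower as promoter and higher as enhancer. They are 1.85% of the KNGAE elements of set 1 pMYC, against 1.25% of all elements, and 0.685% with pAPOBEC3F, against 0.372%. In set 2 pMYC and with pGAPDH no KNGAE element was, against 0.587% and 1.97% of all elements. These shares are near the background. KNGAE0080.rev gave -0.99 and -1.11 in the promoter read-out of set 1 pMYC and 0.28 and 0.10 in the enhancer read-out. KNGAE0132.rev gave -0.62 and -0.68 as promoter and 0.14 and 0.25 as enhancer in the same set. KNGAE0020.rev, named after its values were seen, gave -0.35 and -0.45 as promoter and 0.20 and 0.14 as enhancer there. KNGAE0115.rev gave -0.32 and -0.23 in the pAPOBEC3F promoter read-out and 0.31 and 0.60 in the enhancer read-out. In set 2 pMYC, KNGAE0080.rev repeated the promoter side, with -0.71 and -0.85, and its enhancer values were 0.04 and -0.25. KNGAE0132.rev likewise gave -0.74 and -0.59 as promoter and 0.09 and 0.13 as enhancer in set 2 pMYC, where its adjusted limma p in the enhancer read-out was 0.36 in the authors' deposited table.

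Between minimal promoters the order of the KNGAE elements was kept better in the promoter than in the enhancer read-out. For a pair of minimal promoters, Pearson's r of the log2 fold changes lay between 0.73 and 0.86 in the promoter read-out, over 138 to 160 elements per pair. In the enhancer read-out it lay between 0.29 and 0.52, over 139 to 159 elements. For pMYC itself, set 2 and set 1 gave 0.80 in the promoter and 0.29 in the enhancer read-out, over 147 and 148 elements. The enhancer replicates also correlated less, as given above, and how much of the lower r comes from that was not tested. In the promoter read-out, 80 KNGAE elements were called lower by pMYC in both sets, which is 80.0% of the lower calls of set 2 and 83.3% of those of set 1. In the enhancer read-out it was 13, which is 46.4% of the lower calls of set 2 and 27.1% of those of set 1. These correlations and overlaps are not given here over all elements, so they are not shown to be particular to KNGAE.

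Of the 136 KNGAE elements tested in all 4 promoter tables, 9 were called higher in one of the authors' deposited tables and lower in another, which is 6.62%, against 15.8% of all elements. In the enhancer read-outs 1 of 136 KNGAE elements tested in all 4, KNGAE0132.rev, was called both ways. The share of all elements called both ways there is not given here. KNGAE0069.rev gave 0.26 and 0.21 with pGAPDH, but -0.22 and -0.28 in set 1 pMYC, -0.21 and -0.24 in set 2 pMYC and -0.32 and -0.37 with pAPOBEC3F. It ranked at the 72.9th percentile of the pGAPDH promoter table and at the 23.8th, 27.5th and 26.2nd of the other 3 tables. KNGAE0011.fwd gave 0.27 and 0.29 with pGAPDH, but -0.30 and -0.36 in set 1 pMYC and -0.09 and -0.14 in set 2 pMYC. KNGAE0061.fwd went the other way, with 0.29 and 0.57 with pAPOBEC3F, but -0.14 and -0.09 with pGAPDH and -0.23 and -0.12 in set 2 pMYC. The median of all elements was -0.07 with pGAPDH, against 0.39, 0.24 and 0.23 in the promoter tables of set 1 pMYC, set 2 pMYC and pAPOBEC3F, and the part of these zero points in the differences was not tested. Percentile ranks do not depend on them, but they do depend on the other elements of a table. The median rank of the KNGAE class itself was 32.4 with pGAPDH. It was 17.5, 19.8 and 16.9 in the promoter tables of set 1 pMYC, set 2 pMYC and pAPOBEC3F. How much of a single rank shift is shared by the class was not tested.

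Orientation was tested within each table by limma on the log2 signals of the 2 elements of a locus. The contrast was the log2 RNA/DNA ratio of fwd minus that of rev, with Benjamini-Hochberg adjustment over all loci of the table. The fwd and rev values of a library entered as separate samples, with no term for the library they share. The SE and p-values therefore leave that pairing out, and no fit with such a term was run. The difference fwd minus rev does not depend on the zero point. In the promoter read-outs the fwd element was more often the higher. In set 1 pMYC, the fwd median of the KNGAE loci was -0.20 and the rev median -0.53 in the authors' deposited table, and fwd was above rev at 65 of 80 loci. Over all loci the lean was the same way: fwd was above rev at 81.2% of KNGAE loci, against 66.7% of all loci, in set 1 pMYC, at 68.2%, against 60.2%, in set 2 pMYC, at 59.5%, against 53.5%, with pGAPDH and at 64.7%, against 60.2%, with pAPOBEC3F. In set 1 pMYC, limma called fwd above rev at 47 of 80 KNGAE loci, or 58.75%, against 44.7% of all loci. Rev was called above fwd at 4, or 5.0%, against 19.1%. In set 2 pMYC, 24 of 66 KNGAE loci were called fwd above rev, against 38% of all loci, and 7 rev above fwd, against 21.8%. With pGAPDH, 35 of 79 loci were called fwd above rev, against 38.6%, and 20 rev above fwd, against 31.8%. With pAPOBEC3F, 19 of 68 were called fwd above rev, against 33.1%, and 5 rev above fwd, against 21.7%.

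The shares of fwd calls outside set 1 were thus near those of all loci. In set 1 pMYC, classes with related names, KNGAT and KNGUT, had shares like those of KNGAE. Fwd was called above rev at 56.5% and 56.0% of their loci, against 58.75% of KNGAE loci. Rev was called above fwd at 7.25% and 5.33%, against 5.0%. The median of fwd minus rev over KNGAE loci was 0.39 in set 1 pMYC, 0.25 in set 2 pMYC, 0.11 with pGAPDH and 0.25 with pAPOBEC3F, against 0.22, 0.13, 0.04 and 0.14 over all loci. When the fwd and the rev elements of a table were each centred on their own median, an alternative chosen after seeing the data, the KNGAE split was 31 fwd above rev and 11 rev above fwd in set 1 pMYC. It was 13 and 11 in set 2 pMYC, 29 and 26 with pGAPDH and 6 and 13 with pAPOBEC3F, so that with pAPOBEC3F the direction of the split turned. Without 1 DNA library the fwd counts fell as well: without DNA replicate 1 to 28, 5 and 4, and without DNA replicate 2 to 26, 5 and 4, in set 1 pMYC, set 2 pMYC and with pAPOBEC3F. Without RNA replicate 1 and RNA replicate 2 they were 34 and 31 with pAPOBEC3F.

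In the enhancer read-outs few differences between orientations were called. These read-outs were also shallower, and the part of depth in the number of calls was not tested. In set 1 pMYC, 2 of 79 KNGAE loci were called fwd above rev by limma, against 9% of all loci, and 11 rev above fwd, against 17.3%. In set 2 pMYC no KNGAE locus of 68 was called either way by limma, against 2.58% of all loci for fwd above rev and 4.51% for rev above fwd. At an unadjusted limma p under 0.05, 5 of these loci had fwd above rev and 4 rev above fwd, and no other tool was run on orientation. The unadjusted fwd and rev counts were 5 and 17 in set 1 pMYC, 3 and 16 with pGAPDH and 5 and 11 with pAPOBEC3F. These unadjusted counts are not given here over all loci. With pGAPDH, 1 of 79 loci was called fwd above rev, against 1.75%, and 1 rev above fwd, against 3.5%. With pAPOBEC3F, 1 of 67 was called fwd above rev, against 2.1%, and 3 rev above fwd, against 2.78%. The medians of fwd minus rev over KNGAE loci were -0.04, 0.03, -0.09 and -0.04. Fwd was above rev at 40.5%, 52.9%, 27.8% and 44.8% of KNGAE loci, against 40.6%, 45.7%, 37.2% and 41.8% of all loci. Pearson's r between the fwd and rev log2 fold changes of KNGAE loci was 0.35, 0.33, 0.45 and -0.16 in the enhancer read-outs and 0.32, 0.57, 0.45 and 0.36 in the promoter read-outs.

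In the promoter read-out, 60 KNGAE loci had both orientations in all 4 tables. At 6 of them, or 10.0%, fwd was called above rev in all 4, against 15.8% of the 463 loci so paired, and at 1, or 1.67%, rev above fwd in all 4, against 8.86%. KNGAE0080 had the largest difference of set 1 pMYC, where the fwd element gave 0.02 and 0.12 and the rev element -0.99 and -1.11. Its difference was 1.12 ± 0.09 log2 units (SE), at a limma adjusted p of 6.54e-06. It was 0.59 ± 0.10, 0.55 ± 0.06 and 0.50 ± 0.14 in set 2 pMYC, with pGAPDH and with pAPOBEC3F. KNGAE0093 was called in all 4 as well, and with pAPOBEC3F its fwd element gave -0.00 and -0.16 and its rev element -1.26 and -1.20. Its difference there was 1.15 ± 0.09 (SE), at a limma adjusted p of 0.00011. The other 4 loci, named after their values were seen, were KNGAE0008, KNGAE0052, KNGAE0076 and KNGAE0133, with differences of 0.16 to 0.88.

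KNGAE0071 was the 1 locus with rev above fwd in all 4 promoter tables. Its fwd element gave -0.58 and -0.54 in set 1 pMYC, -0.64 and -0.52 in set 2 pMYC, -0.70 and -0.63 with pGAPDH and -0.85 and -0.70 with pAPOBEC3F, while its rev element lay between -0.04 and 0.37 throughout. The difference was largest with pGAPDH, at -1.04 ± 0.05 (SE) with a limma adjusted p of 5.18e-06. In the enhancer read-outs its fwd minus rev was -0.42 ± 0.08, -0.57 ± 0.18, -0.34 ± 0.09 and -0.59 ± 0.17 (SE), of which the set 1 pMYC value passed, at a limma adjusted p of 0.00869, and the others gave 0.119, 0.0712 and 0.118.

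Other large differences were limited to fewer tables. KNGAE0012, tested with both orientations in set 1 pMYC and with pGAPDH, differed by 1.03 ± 0.08 and 1.04 ± 0.09 (SE) in the promoter read-outs, and by 0.12 ± 0.10 and 0.02 ± 0.15 in the enhancer read-outs. KNGAE0047 differed by 0.92 ± 0.09 in set 1 pMYC and 0.98 ± 0.07 with pGAPDH (SE). KNGAE0061 differed by 0.91 ± 0.13 (SE) with pAPOBEC3F, at a limma adjusted p of 0.00144, and by -0.01 ± 0.08 and -0.10 ± 0.06 in set 2 pMYC and with pGAPDH. KNGAE0013 was called rev above fwd in the enhancer read-outs of set 1 pMYC, pGAPDH and pAPOBEC3F, with differences of -0.45 ± 0.09, -0.42 ± 0.08 and -0.91 ± 0.16 (SE). Its enhancer rev values with pAPOBEC3F were 0.67 and 0.53, and its fwd values -0.26 and -0.37. The limma adjusted p was 0.0117, 0.0359 and 0.0244.

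Some loci changed direction between promoter tables or between read-outs. Among the 60 loci, 4, or 6.67%, against 11.2% of all loci so paired, were called fwd above rev in one promoter table and rev above fwd in another: KNGAE0007, KNGAE0036, KNGAE0057 and, by the rule for named loci, KNGAE0109, the others being named after their values were seen. KNGAE0109 differed by 0.37 ± 0.15 in set 1 pMYC and by -0.56 ± 0.10 in set 2 pMYC (SE), with limma adjusted p of 0.0492 and 0.0036. KNGAE0155 differed by 0.98 ± 0.30 in the promoter read-out of set 1 pMYC and by -0.53 ± 0.15 in the enhancer read-out (SE), with its fwd promoter replicates far apart at -0.92 and -0.08.

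KNGAE elements were set beside 3 classes with related names, whose letters the labels do not explain either. KNGAT and KNGUT elements had medians close to those of KNGAE in every table. In the promoter read-out of set 1 pMYC the medians were -0.39 for KNGAE, -0.37 for KNGAT and -0.29 for KNGUT, and with pAPOBEC3F -0.56, -0.64 and -0.55, in the authors' deposited tables. Lower calls in the promoter read-out of set 1 pMYC covered 67.5% of KNGAE, 67.6% of KNGAT and 61.5% of KNGUT elements. KUUAE elements lay higher, with promoter medians of 0.94, 0.61, 0.11 and 0.79 in the authors' deposited tables of set 1 pMYC, set 2 pMYC, pGAPDH and pAPOBEC3F. Replicates of KUUAE elements also correlated better, with r of 0.92 against 0.26 for KNGAE in the set 2 pMYC enhancer read-out, where the values of KUUAE elements cover a wider range. The 3 KNG classes therefore did not separate in these medians, and no test between classes was made.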

How the data were processed

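QUASARR-seq libraries of K-562 cells were analysed from 8 deposited tables, 1 for each read-out of each plasmid set and minimal promoter. Per the file headers, each table holds signal values of 2 DNA and 2 RNA libraries, log2 fold changes and mean log2 levels, a t score and p-values. Per the submitters' processing notes, fastp, edgeR, limma and the build hg38 were in the authors' pipeline, and how the signal values were normalized is not given in the sources used here. In every library 100% of the deposited signal values were whole multiples of 1 read, within a tolerance of 0.02, so whole reads were recovered. Totals ran from 200722 to 10167588 RNA reads and from 759171 to 10880944 DNA reads per table and library. Intervals cover counting error only. The 3 index libraries were not used here, and 0 sample columns were unmatched.

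Replicate ratios were computed as log2 RNA/DNA with 0.5 reads added. Calls are those of the authors' deposited limma test at an adjusted p under 0.05. Own fits used limma 3.58.1 and edgeR 4.0.16 in R 4.3.3, and summaries used Python 3.11.15 with numpy 2.4.6, pandas 2.3.3 and scipy 1.17.1. Orientation was tested by limma over all loci of a table, with the fwd and rev values of a library entered as separate samples. The fits were tested on simulated data. As an added alternative, edgeR on the recovered reads called 1020 to 2537 elements per table. Other alternatives changed the zero point, the reads added, the threshold, a minimum of 20 DNA reads, the replicate number as a block and the libraries used.

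The members, lists and tests were chosen with earlier results of these data known. Named were the 3 highest and 3 lowest called elements per table, up to 10 elements called higher and 5 called lower in most tables, up to 3 loci with the largest called orientation difference per table, up to 2 elements called oppositely or shifted most in rank between read-outs or minimal promoters, and elements nearest the class median. The text describes some of these. Elements and loci outside the rule are said to be so where they are named.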

Additional observations from a re-analysis of the deposited data

Results flagged for a closer look

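Some KNGAE elements were called in opposite directions in 2 tables. These differences were not tested, because the tables were normalized separately, and the values are mean log2 RNA/DNA of 2 replicates. In the promoter read-outs KNGAE0011.fwd averaged -0.33 in set 1 pMYC, -0.11 in set 2 pMYC and 0.28 with pGAPDH. KNGAE0036.fwd averaged 0.22 in set 1 pMYC and -0.36 in set 2 pMYC, which share the minimal promoter. KNGAE0039.fwd averaged -0.43 in set 2 pMYC and 0.16 with pGAPDH. KNGAE0061.fwd averaged -0.17 in set 2 pMYC, -0.11 with pGAPDH and 0.43 with pAPOBEC3F. KNGAE0069.rev averaged -0.25 in set 1 pMYC, -0.22 in set 2 pMYC, 0.23 with pGAPDH and -0.34 with pAPOBEC3F. KNGAE0132.fwd averaged -0.25 in set 2 pMYC, 0.12 with pGAPDH and -0.32 with pAPOBEC3F. In the enhancer read-outs KNGAE0132.rev averaged 0.20 in set 1 pMYC and -0.45 with pAPOBEC3F.

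Opposite calls between the read-outs of 1 minimal promoter were found for 4 elements, again untested. In set 1 pMYC, KNGAE0020.rev averaged -0.40 as promoter and 0.17 as enhancer, KNGAE0080.rev -1.05 and 0.19, and KNGAE0132.rev -0.65 and 0.20. With pAPOBEC3F, KNGAE0115.rev averaged -0.27 as promoter and 0.46 as enhancer.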

How the results depend on the processing

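Counts are of KNGAE elements or loci, without those of all elements or loci under the same setting. The cause of a change was not tested unless the setting itself gives fewer samples or a stricter threshold. At an adjusted p under 0.01 in the authors' deposited tables, 6 elements were higher in the set 1 pMYC promoter read-out, 34 lower in the set 1 pMYC enhancer, 10 lower in the set 2 pMYC enhancer, 2 higher in the pGAPDH enhancer, and 2 higher and 19 lower in the pAPOBEC3F enhancer read-out. For calls of 1 log2 unit or more, 0 were higher in all 8 tables, and 9, 0, 12, 3, 11, 0, 24 and 4 were lower (promoter then enhancer of set 1 pMYC, set 2 pMYC, pGAPDH and pAPOBEC3F). For orientation at an adjusted limma p under 0.01, fwd above rev and rev above fwd came to 2 rev in the set 1 pMYC promoter, 1 and 2 in its enhancer, 12 and 3 in the set 2 pMYC promoter, 0 and 0 in the pGAPDH enhancer, 8 and 2 in the pAPOBEC3F promoter and 0 rev in its enhancer read-out.

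Centred on all elements, higher counts were 0 in the promoter read-outs of set 1 pMYC, set 2 pMYC and pAPOBEC3F and 0 in the set 2 pMYC enhancer. They were 1, with 125 lower, in the set 1 pMYC enhancer, 1, with 39 lower, in the pGAPDH enhancer, and 1 in the pAPOBEC3F enhancer. KNGAE0025.fwd turned to -0.023 in the set 1 pMYC promoter. Centred on the elements named by a number alone, chosen after seeing the data, higher and lower were 39 and 67 in the set 1 pMYC promoter, 21 and 62 in the set 2 pMYC promoter, 1 and 17 in its enhancer, 1 and 38 in the pGAPDH enhancer and 1 and 20 in the pAPOBEC3F enhancer. With fwd and rev centred on their own medians, also chosen after seeing the data, fwd above rev and rev above fwd were 31 and 11, 13 and 11, and 6 and 13 in the promoters of set 1 pMYC, set 2 pMYC and pAPOBEC3F, 5 and 6 in the set 1 pMYC enhancer, and rev 0 in the pGAPDH enhancer.

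The labels do not say that same-numbered RNA and DNA libraries are paired. Their deviations correlated at 0.41 over all elements in the set 1 pMYC enhancer and at -0.07 to 0.03 in the other tables, and 2 pairs do not settle whether the numbers pair the libraries. With the replicate block, higher counts were 5 in the set 2 pMYC promoter, and higher and lower were 0 and 13 in its enhancer, 1 and 33 in the pGAPDH enhancer and 0 and 10 in the pAPOBEC3F enhancer. With no replicate block they were 5 higher in the set 2 pMYC promoter, 16 lower in its enhancer, 1 higher in the pGAPDH enhancer, and 1 higher and 20 lower in the pAPOBEC3F enhancer. With 5 reads added, 10 were lower in the set 2 pMYC enhancer, 1 higher in the pGAPDH enhancer, and 9 higher and 12 lower in the pAPOBEC3F enhancer. For orientation with 5 reads added, rev above fwd was 1 in the set 2 pMYC and 3 in the pGAPDH enhancer, and fwd above rev 2 in the pAPOBEC3F enhancer. With at least 20 DNA reads, rev above fwd was 3 in the pGAPDH enhancer, and the KNGAE median minus that of all elements was -0.33 in the set 2 pMYC enhancer. Without the substituted elements, chosen after seeing the data, that difference was -0.58 in the set 1 pMYC promoter and -0.20 in its enhancer.

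Leaving out 1 library gave higher counts of 3 to 24, 2 to 17, 1 to 17, 0 to 8, 12 to 17, 0 to 2, 0 to 3 and 0 to 7 in the order of tables above, and lower counts of 86 to 123, 9 to 67, 69 to 109, 3 to 30, 101 to 111, 7 to 33, 84 to 124 and 0 to 45. Fwd above rev was 26 to 62, 0 to 11, 5 to 27, 0 to 3, 26 to 36, 0 to 0, 4 to 34 and 0 to 8, and rev above fwd 3 to 15, 0 to 19, 1 to 10, 0 to 3, 14 to 23, 0 to 2, 1 to 14 and 0 to 11. Leaving out a replicate, the median difference was -0.327 to -0.323 in the set 1 pMYC enhancer, -0.34 to -0.338 in the set 2 pMYC enhancer, -0.148 to -0.131 in the pGAPDH enhancer and -0.831 to -0.805 in the pAPOBEC3F promoter.

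Depth limits single elements most in the set 2 pMYC and pAPOBEC3F enhancer read-outs, where a median KNGAE element had under 100 RNA reads per library. Leaving out 1 of 2 libraries leaves a lone sample that is assumed to vary like the other group, and a count near 0 there does not show that an element had no activity.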
